A study of Mus musculus with 2 samples.

Results

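The input-rich Nkx6.1 sites are the ChIP-seq peaks at which the input library itself held 35 or more tags. They were taken from the deposited list of Nkx6.1 peaks in mouse pancreatic islets, on chromosomes 1 to 19, and were chosen by their input tags alone. It kept 891 of 15045 autosomal peaks, or 5.92% (exact Clopper-Pearson 95% interval 5.55 to 6.31), and 5.85% of the 15239 peaks of the whole list. Their input level and their fold over input are therefore given as a description, with no test. Islets prepared from 1 mouse gave 1 library immunoprecipitated with an Nkx-6.1 antibody, whose label gives a C57Bl/6 background, and 1 input library prepared with no antibody, whose label gives no background. The labels give neither age, sex nor treatment, and islets hold several hormone cell types that were not separated. With 1 library per group there is no replicate and no test between samples, so intervals cover counting error or the spread over peaks. Peaks are sites in the same pair of libraries and are not replicates of each other.

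Nkx6.1 is a homeodomain transcription factor of insulin-producing beta cells, where it helps to keep beta cell identity and insulin secretion and holds back genes of other islet cell types. Homeodomain proteins bind short AT-rich sequences. Input is sheared chromatin sequenced without enrichment, and its coverage is known to be uneven. Open chromatin breaks more easily, and repeats whose copies are merged in an assembly collect the tags of all copies. A peak caller therefore sets ChIP against input at the same place. Whether the 891 sites lie in promoters or repeats was not checked, because the list names no genes and an mm9 genome was not used here. For that reason the sites are named by mm9 position, and no sequence is shown.

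Per the file header the ChIP library held 202780986 tags. Its tags at each peak were deposited after scaling to the depth of the input library, where 1 sequenced ChIP tag counts as 0.788, and they are called scaled ChIP tags here. Input tags were deposited as whole numbers, or as 21.4 where the count was lower. That minimum stood at 10050 autosomal peaks, called minimum-input peaks here, and 4104 peaks lay between it and 35. All 10050 share 1 nominal value, so their true input is unknown and may be far lower.

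Most of the input-rich sites lay only a little above the threshold. Their input tags had a median of 39 (interquartile range 36 to 45), and 335 of the 891 (37.6%) held 35 to 37. The threshold is 1.64 times the minimum. A count of 35 has an exact Poisson 95% interval of 24.4 to 48.7, which lies above 21.4. The interval of 34 tags, 23.5 to 47.5, is nearly the same, so which sites fall just inside is a matter of counting error. The 118 sites at exactly 35 tags had a median of 190.4 scaled ChIP tags and a fold of 5.44. The 140 peaks at exactly 34 tags, just outside, had 188.4 and 5.54. The distribution had no break at 35, and it thinned out to 28 sites with 60 input tags or more and 2 above 90.

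**Figure D1:**
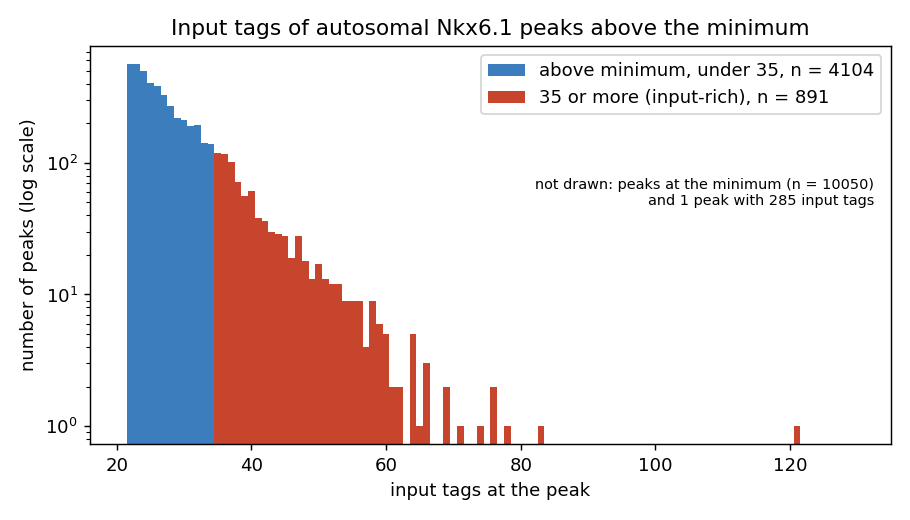
Number of autosomal peaks (y axis, log scale) at each number of input tags (x axis), for peaks above the minimum: blue, under 35 tags, and red, input-rich peaks, without the 1 at 285 tags, which lies beyond the axis. The counts fall smoothly through the threshold of 35, and of the peaks drawn the one with 121 tags stands farthest to the right.

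The sites with the most input tags differed widely in how much Nkx6.1 signal they carried. The highest input in the autosomes, 285 tags (exact Poisson interval 253 to 320.1), was on chromosome 2 from 5300311 to 5300443. It held 1400 scaled ChIP tags, a fold of 4.91 (exact conditional interval 4.33 to 5.59), which is close to the limit of 4 that the caller required. This site also had the highest focus ratio of the 891, 0.997, and the highest clonal fold, 1.55. The focus ratio describes how closely tags of the 2 strands flank the peak centre, and the clonal fold sets tags per position against the number the caller expects.

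On chromosome 8, the site from 20020306 to 20020438 held 121 input tags (100.4 to 144.6) and 997.2 scaled ChIP tags, at 8.24-fold (6.83 to 10.02). Its focus ratio was low, at 0.672, although its fold over the surrounding 10000 bp was 81.95. A second site on that chromosome, from 19784586 to 19784718, lay 235.7 kb away and held 74 input tags and 418.6 scaled ChIP tags at 5.66-fold (4.43 to 7.32). These neighbours thus both rank among the 10 sites of highest input, while the nearest peak to each held 31 input tags.

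The site on chromosome 6 from 21899984 to 21900116 combined 78 input tags (61.7 to 97.3) with 2484.7 scaled ChIP tags, the most of any autosomal peak. Its fold was 31.9 (25.4 to 40.4), and the intervals of this site and the chromosome 2 site did not overlap. In contrast, 3 other sites of the 10 stood near the caller's limit. On chromosome 8 from 82235571 to 82235703, 83 input tags faced 337.4 scaled ChIP tags, at 4.07-fold (3.21 to 5.21). The site on chromosome 5 from 65782648 to 65782780 had 71 and 290.9, at 4.10-fold (3.17 to 5.36). The site on chromosome 17 from 24615965 to 24616097 had 69 and 286.9, at 4.16-fold (3.21 to 5.46). The lower bounds of these 3 fell below 4, so their folds are not resolved from the limit itself.

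The remaining sites of the top 10 by input lay on chromosomes 4, 6 and 17. The chromosome 17 site from 30713462 to 30713594 had 76 input tags and 537.6 scaled ChIP tags, at 7.07-fold (5.57 to 9.09). With the same 76 input tags, the chromosome 6 site from 70794434 to 70794566 had 336.6 scaled ChIP tags, at 4.43-fold (3.46 to 5.73). Its lower bound also fell below 4, so its fold is not resolved from the limit either. The chromosome 4 site from 133017022 to 133017154 had 69 input tags and 413.9 scaled ChIP tags, at 6.00-fold (4.66 to 7.83). The intervals of the 2 sites with 76 input tags overlapped barely, between 5.57 and 5.73.

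ChIP tags of the input-rich sites were bound from below by the caller's rule. A site with 35 input tags needs 140 scaled ChIP tags to reach 4-fold, and the lowest of the 891 held 141.1. Their median was 216.8 scaled ChIP tags (order-statistic 95% interval over peaks 210.5 to 223.1, interquartile range 178.6 to 286.6, highest 2484.7). Minimum-input peaks had a median of 122.2 (120.6 to 123.8), but 6236 of those 10050 (62.0%) lay below 141.1, where no input-rich site can be listed. Among the 3814 minimum-input peaks that reached 141.1, the median was 193.9 (190.8 to 196.3). With that limit shared, the input-rich median was higher by 22.9 scaled ChIP tags (16.2 to 29.9), against 94.6 (88.1 to 101.1) without it. The limit still rises with input inside the input-rich group, and how much of the remaining gap is set by the rule was not tested.

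Computed as scaled ChIP tags over input tags, the fold of the input-rich sites had a median of 5.13 (5.01 to 5.28) and ran from 4 to 39.5. Minimum-input peaks had a median of 5.71 (5.64 to 5.79), or 9.06 (8.92 to 9.17) among those with at least 141.1 scaled ChIP tags. The latter folds are lower limits, since their input may be under 21.4. Of the input-rich sites 254 (28.5%) stood below 4.5-fold, against 2072 (20.6%) of the minimum-input peaks. In the input-rich group 481 sites (54.0%) reached 5-fold, where 64.6% of all autosomal peaks did. At 8-fold there were 138 (15.5%), against 24.1% of all autosomal peaks, and at 20-fold 9 (1.01%), against 2.35%. As input tags are the divisor, these shares restate the choice of the sites.

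**Figure D2:**
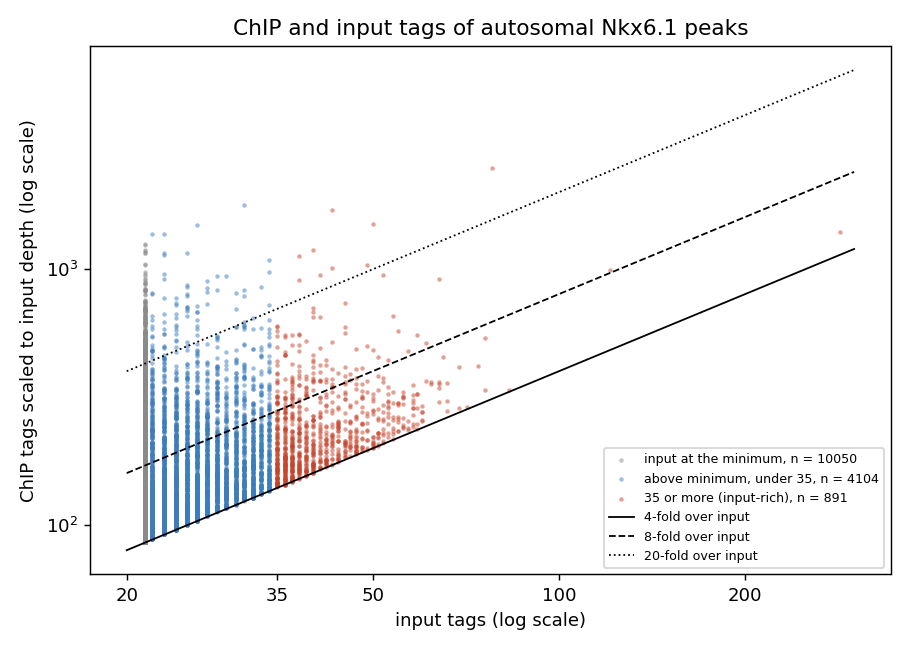
Scaled ChIP tags (y axis, log scale) against input tags (x axis, log scale) for each autosomal peak, with lines at 4-, 8- and 20-fold. No peak lies below the 4-fold line, so the 891 input-rich peaks (red) start at 141.1 scaled ChIP tags while minimum-input peaks (grey) reach down to 85.9.

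The 9 sites at 20-fold or more carried between 908.1 and 2484.7 scaled ChIP tags over 38 to 78 input tags. The highest fold was on chromosome 7 from 86739937 to 86740069, at 39.5-fold (29.2 to 54.7), with 1696.4 scaled ChIP tags and 43 input tags. Next by fold came the chromosome 6 site above. The site on chromosome 5 from 4004993 to 4005125 reached 30.1-fold (22.7 to 40.7) with 1504.1 scaled ChIP tags and 50 input tags. On chromosome 3, the site from 152157758 to 152157890 reached 29.8-fold (21.7 to 41.8) with 1190.3 over 40. The site on chromosome 16 from 69980162 to 69980294 reached 29.6-fold (21.4 to 41.9) with 1123.3 over 38. All 5 intervals overlapped, so their order was not resolved at this depth. Of the other 4 sites, 2 were on chromosome 7, at 23.1- and 23.9-fold, 1 on chromosome 4 at 23.5-fold and 1 on chromosome 19 at 21.1-fold.

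At the other end, 5 sites had computed folds between 4 and 4.003. Those at chr11:81358005-81358137 and chr12:80020424-80020556 each held exactly 160 scaled ChIP tags over 40 input tags (fold interval 2.84 to 5.77). The others lay at chr2:160423675-160423807, chr10:80755468-80755600 and chr18:9450231-9450363, with 152.1 to 156.1 scaled ChIP tags over 38 or 39 input tags. A single further input tag would have put each of them under the limit.

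Within the input-rich group, ChIP tags rose with input while the fold hardly moved. The 463 sites with 35 to 39 input tags had a median of 188.4 scaled ChIP tags and a fold of 5.15 (5.01 to 5.43). The 300 sites with 40 to 49 had 222.3 and 5.11 (4.92 to 5.31), and the 100 sites with 50 to 59 had 265.7 and 4.95 (4.60 to 5.39). The 28 sites with 60 or more had 357.5 and 5.42 (4.63 to 5.87). All 4 intervals of the fold overlapped. The 4-fold limit moves up with input, so the fewest ChIP tags a listed site can hold rise along these steps by the rule. How much of the rise in medians comes from this was not tested. The same limit cuts the fold off at 4 in every step. The fold over the local 10000 bp, itself made from ChIP tags, had medians of 12.8, 14.3, 17.9 and 25.9 along the same steps. The focus ratio had 0.780, 0.782, 0.807 and 0.818. Among input-rich sites both measures also rose with ChIP tags, so their rise here cannot be told apart from that of ChIP tags. The clonal fold stayed between 0.88 and 0.93.

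The share of peaks that were input-rich ranged from 3.97% to 8.34% over the chromosomes. It averaged 5.84% ± 1.25 (SD, n = 19 autosomes). Chromosome 11 had the highest share, with 80 of 959 peaks or 8.34% (Clopper-Pearson 6.67 to 10.3), and its interval alone lay above the pooled 5.92%. Chromosome 17 followed with 48 of 608 or 7.89% (5.88 to 10.3), chromosome 7 with 66 of 886 or 7.45% (5.81 to 9.38) and chromosome 8 with 56 of 800 (interval 5.33 to 8.99). Chromosome 15 had the lowest share, with 26 of 655 or 3.97% (2.61 to 5.76), and chromosome 10 had 36 of 836 or 4.31% (3.03 to 5.91). The intervals of these 2 lay below the pooled share, and those of the other 16 chromosomes held it. These intervals treat peaks as independent and were not adjusted for the number of chromosomes.

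Per Mb between the first and last peak, chromosome 11 held 0.676 input-rich sites and chromosome 12 held 0.248. A high density of peaks did not always go with a high share of input-rich ones. Chromosome 19, at 7.96 peaks per Mb, nearly matched the 8.11 of chromosome 11, yet 25 of its 462 peaks were input-rich, or 5.41% (3.53 to 7.88). Of the chromosome 19 peaks, 38.5% (34.1 to 43.1) had input above the minimum, against 42.8% (39.6 to 46.0) on chromosome 11 and 33.2% over all autosomes. Outside the autosomes, chromosome X had 1 peak of 192 with 35 or more input tags, which held 41. Among the input-rich sites of a chromosome, median scaled ChIP tags ran from 200.6 on chromosome 17 to 249.1 on chromosome 13, and the median fold from 4.72 to 6.08 on the same chromosomes.

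**Figure D3:**
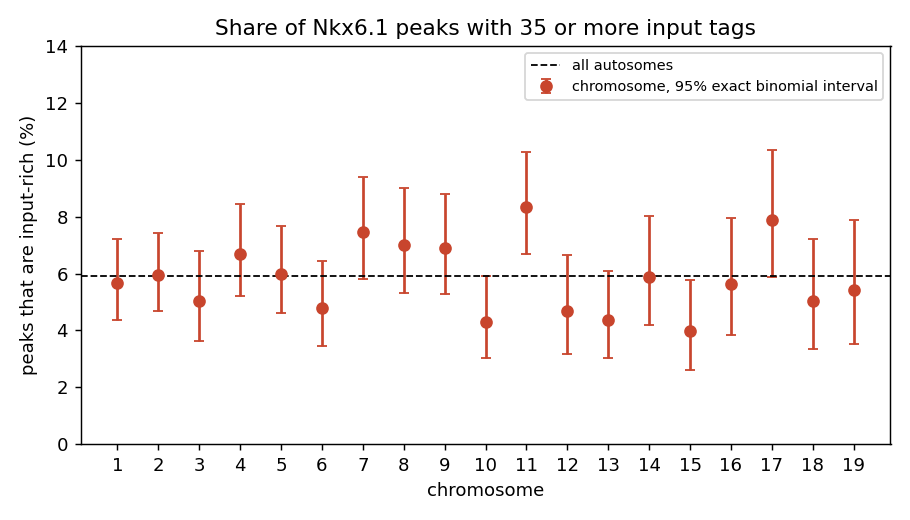
Percent of peaks on each autosome (x axis) that are input-rich (y axis), with exact Clopper-Pearson 95% intervals, and the share over all autosomes as a dashed line. Chromosome 11 (8.34%) lies above the line with its whole interval, and chromosomes 10 and 15 (4.31% and 3.97%) lie below it.

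At the scale of 1 Mb, 6 windows held 5 input-rich sites each, the most of any window. The window on chromosome 8 from 72000001 to 73000000 had 5 among 12 peaks, and the one on chromosome 11 from 86000001 to 87000000 had 5 among 16. Chromosome 8 had another such window from 124000001 to 125000000, with 5 among 17. In the 3 on chromosomes 4 and 7 they were 5 among 24 or 25 peaks. Windows with 20 or more peaks held 74 input-rich sites, or 8.31% of them (6.58 to 10.3), against 5.37% of minimum-input peaks (4.94 to 5.83). That share was not computed for peaks between the groups or with a shared limit of ChIP tags, so it is not shown to be particular to input-rich sites. These windows were singled out for their counts, and no test was made of them.

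Of the measures taken from the ChIP library alone, the clonal fold kept its direction in every band of ChIP tags. Its median was 0.92 (0.91 to 0.93) in input-rich sites and 0.84 (0.83 to 0.84) in minimum-input peaks. Clonal fold falls as ChIP tags rise, so the groups were also set side by side within bands of scaled ChIP tags. From 141.1 to under 200 tags it was 0.96 (0.95 to 0.98) in 349 input-rich sites and 0.82 (0.82 to 0.83) in 2040 minimum-input peaks. From 200 to under 300 it was 0.92 (0.90 to 0.93) in 346 sites against 0.77 (0.77 to 0.78) in 1120 peaks. From 300 to under 500 it was 0.83 against 0.71, and at 500 or more 0.70 (0.65 to 0.72) in 39 sites against 0.63 (0.62 to 0.64) in 146 peaks. Input-rich sites were higher in all 4 bands, with intervals that did not overlap.

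Medians of the 2332 peaks between the groups with at least 141.1 scaled ChIP tags took a middle place in each band, at 0.91, 0.84, 0.76 and 0.64. At 500 or more their interval (0.63 to 0.66) overlapped those of both other groups. A clonal fold above 1 was found at 182 input-rich sites (20.4%), 718 of all 4104 peaks between the groups (17.5%) and 779 minimum-input peaks (7.75%). After the chromosome 2 site of 1.55, the highest clonal folds of input-rich sites were 1.29 at chr4:139673426-139673558 and chr5:49676894-49677026, each with 35 input tags. Then came 1.27 at chr12:100519824-100519956 and 1.26 at chr9:123168937-123169069. These 4 sites were all weak, at 146.6 to 195.5 scaled ChIP tags. Among peaks of 8-fold or more over input, the median clonal fold of input-rich sites exceeded that of minimum-input peaks by 0.01 (-0.0041 to 0.03), so there the difference was not resolved. Fold limits and ChIP tag bands select different peaks, since an 8-fold input-rich site must hold at least 1.64 times as many ChIP tags as an 8-fold minimum-input peak.

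The focus ratio changed direction with the peaks it was compared with. Over all peaks its median was 0.785 (0.780 to 0.793) in input-rich sites and 0.776 (0.774 to 0.778) in minimum-input peaks, higher by 0.009 (0.0036 to 0.017). With at least 141.1 scaled ChIP tags in both groups, minimum-input peaks had 0.795, and input-rich sites were lower, by -0.01 (-0.016 to -0.0015). Within bands, the medians were 0.762 against 0.782 from 141.1 to under 200 tags, 0.786 against 0.799 from 200 to under 300 and 0.822 against 0.829 from 300 to under 500. At 500 tags or more they were 0.878 against 0.849. Intervals of the first band (0.752 to 0.772 against 0.778 to 0.786) did not overlap, and those of the other 3 bands did. The difference from 200 to under 300 tags was -0.0135 (-0.025 to -0.00088). Peaks between the groups had 0.765 (0.758 to 0.77) in the first band, an interval that overlapped that of input-rich sites. In the later bands they had 0.7945, 0.818 and 0.867.

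The lowest focus ratios of input-rich sites were 0.581 at chr16:91044720-91044852, 0.591 at chr7:54263668-54263800 and 0.595 at chr10:66539300-66539432. A site with 0.597 at chr10:80085127-80085259 and one with 0.599 at chr16:49747128-49747260 completed the lowest 5. Of these, 4 held 154.5 to 187.6 scaled ChIP tags, below the group's median of 216.8, and the site with 0.597 held 237.3. The highest after the chromosome 2 site were 0.969 at chr3:15194485-15194617, 0.967 at the chromosome 7 site of highest fold, 0.963 at chr2:8302039-8302171 and 0.961 at chr9:61221223-61221355. The latter was 1 of 7 peaks linked at 10 kb, with 362.6 scaled ChIP tags over 40 input tags, and its nearest neighbour at 1.14 kb stood at the input minimum. High focus ratios thus came at both strong and weak sites, from 184.5 to 1696.4 scaled ChIP tags.

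The fold over the local 10000 bp behaved likewise. Its median was 14.02 (13.6 to 14.7) in input-rich sites and 9.34 (9.27 to 9.45) in minimum-input peaks, but 14.3 (14.1 to 14.5) in minimum-input peaks of at least 141.1 scaled ChIP tags, a difference of -0.275 (-0.767 to 0.379). From 141.1 to under 500 tags the input-rich medians were the lower ones, at 11.2 against 12.3, 15.3 against 16.7 and 22.4 against 24.97. These differences were -1.12 (-1.49 to -0.709), -1.42 (-2.16 to -0.637) and -2.60 (-4.19 to -0.795). At 500 or more the medians were 39.4 against 38.2. Peaks between the groups had 11.3, 15.71 and 23.45 in the bands under 500 tags, and 40.91 at 500 or more. The highest local fold of the 891 sites, 149.98, belonged to the chromosome 7 site of highest fold over input. Among these sites the chromosome 2 site of highest input followed with 120.74, the chromosome 6 site had 115.52, the chromosome 5 site of 30.1-fold had 104.93 and the chromosome 8 site with 121 input tags had 81.95.

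**Figure D4:**
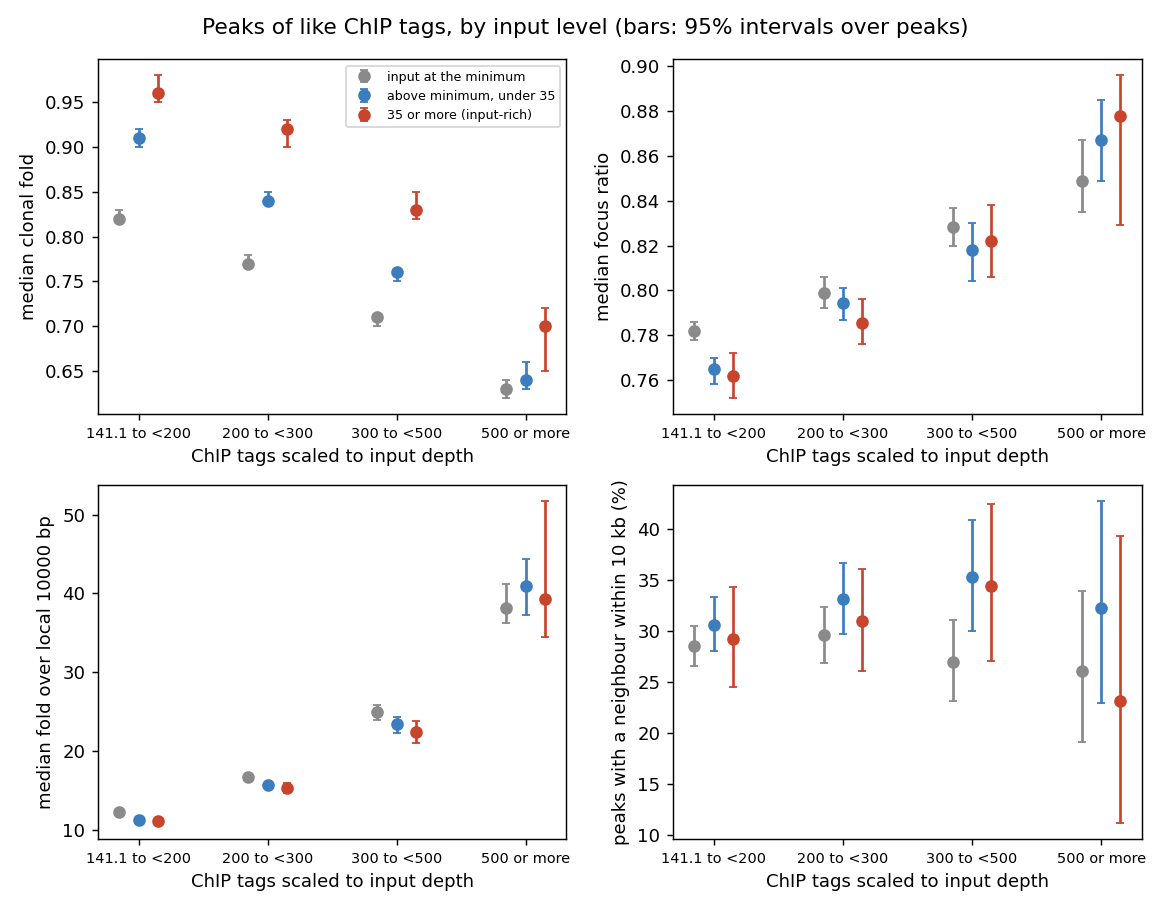
Median clonal fold, focus ratio and fold over the local 10000 bp, and percent of peaks with a neighbour within 10 kb (y axes), in 4 bands of scaled ChIP tags (x axes), for minimum-input (grey), intermediate (blue) and input-rich peaks (red), with 95% intervals over peaks. Clonal fold is ordered by input in every band, while the intervals of neighbour shares overlap between input-rich and minimum-input peaks in every band.

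A neighbour is another autosomal peak, at whatever input level, with distances taken from centre to centre. Of the input-rich sites, 272 had another peak within 10 kb, or 30.5% (Clopper-Pearson 27.5 to 33.7), against 26.6% (25.8 to 27.5) of minimum-input peaks. The difference was 3.88 percentage points (0.745 to 7.14). Against minimum-input peaks with at least 141.1 scaled ChIP tags, of which 28.5% (27.1 to 29.96) had such a neighbour, it was 2.03 points (-1.32 to 5.48), so a difference was not resolved. Peaks between the groups had 31.8% (30.4 to 33.2), no lower than the input-rich sites. The median distance to the nearest peak was 22.7 kb (20.4 to 26.1) for input-rich sites and 28.0 kb (26.9 to 29.1) for minimum-input peaks. For peaks between the groups it was 22.5 kb (21.4 to 24.1), much as for the input-rich sites.

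More than 100 kb from any other peak lay 110 of the input-rich sites, or 12.3% (10.3 to 14.7), against 19.2% (18.4 to 19.96) of minimum-input peaks. Of the peaks between the groups 13.4% (12.4 to 14.5) lay that far away. With the lower limit of 141.1 scaled ChIP tags shared, 19.0% (17.8 to 20.3) of minimum-input peaks had no neighbour within 100 kb. Clusters of 3 or more peaks linked at 10 kb held 79 input-rich sites, or 8.87% (7.08 to 10.9), against 6.96% (6.47 to 7.47) of minimum-input peaks. Those 79 lay in 71 of the 347 autosomal clusters, and 8 clusters held more than 1. Within 1 kb of another peak were 76 sites, or 8.53% (6.78 to 10.6), against 6.28% (5.81 to 6.77) of minimum-input peaks. Against the 6.82% (6.04 to 7.66) of minimum-input peaks with at least 141.1 scaled ChIP tags, the intervals overlapped. Of the peaks between the groups 8.11% (7.30 to 8.99) had another peak that close.

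High input was shared between peaks that lay very close together. Of the 76 sites with a neighbour within 1 kb, 16 had an input-rich one, or 21.1% (12.5 to 31.9). For minimum-input peaks this was 31 of 631, or 4.91% (3.36 to 6.90), and for the peaks between the groups 29 of 333, or 8.71% (5.91 to 12.3). From 1 to 10 kb the shares were 7.14% (3.96 to 11.7) for input-rich sites and 5.81% (4.84 to 6.92) for minimum-input peaks. Over 10 and up to 25 kb they were 5.15% (2.50 to 9.28) and 5.67% (4.70 to 6.76). Beyond 25 kb they were 7.53% (5.21 to 10.5) and 5.33% (4.75 to 5.97). Input above the minimum at the nearest peak was found for 57.9% of input-rich sites (46.0 to 69.1) against 33.6% of minimum-input peaks (29.9 to 37.4) within 1 kb, and for 38.6% (33.9 to 43.4) against 30.5% (29.3 to 31.8) beyond 25 kb. In the ranges between, the shares were 41.8% against 35.6% from 1 to 10 kb and 37.6% against 32.3% up to 25 kb, with overlapping intervals. For peaks between the groups the share was 45.9% (40.5 to 51.5) within 1 kb and 35.6% (33.4 to 37.7) beyond 25 kb. Both of these intervals overlapped those of the input-rich sites. The 16 sites form 8 pairs, so they are not 16 independent cases. How wide a window the caller used to count input is not stated in the header, so input tags counted at both peaks of a close pair were not tested.

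**Figure D5:**
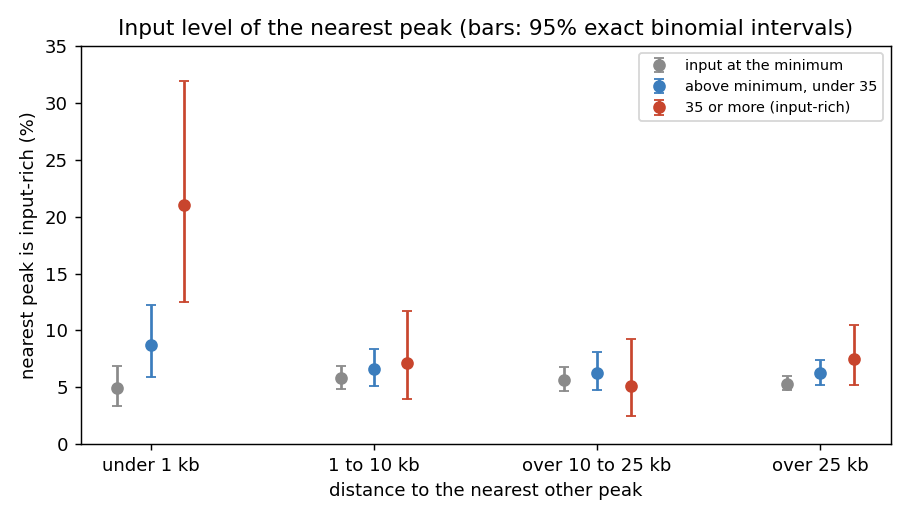
Percent of peaks whose nearest other peak is input-rich (y axis) by the distance to that peak (x axis), for minimum-input (grey), intermediate (blue) and input-rich peaks (red), with exact Clopper-Pearson 95% intervals. Within 1 kb the input-rich peaks stand at 21.1%, and at longer distances the intervals of input-rich and minimum-input peaks overlap.

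The closest pair of input-rich sites lay on chromosome 3, where peaks from 135101309 to 135101441 and from 135101628 to 135101760 were 319 bp apart. They held 40 and 42 input tags and 193.1 and 215.2 scaled ChIP tags. On chromosome 11, peaks from 8324978 to 8325110 and from 8325339 to 8325471 were 361 bp apart, with 39 and 43 input tags but 384.7 and 204.2 scaled ChIP tags. The pair on chromosome 7 from 48888427 to 48888926 had 51 and 53 input tags and stood at 4.08- and 4.16-fold. The pair on chromosome 4 from 5651287 to 5651795, with 52 and 38 input tags, was part of a cluster of 3 peaks. The pair on chromosome 8 from 11214447 to 11214982, with 56 and 45 input tags, reached 5.32- and 8.09-fold. Input was nearly equal within the first 3 pairs, and the ChIP tags of the chromosome 11 pair differed most. No 3 input-rich sites were linked at 10 kb, and 17 groups of 2 were. The median distance from an input-rich site to the next one was 483 kb.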

How the data were processed

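The 2 libraries were processed by the authors with Bowtie and HOMER on mm9, per the submitters' processing notes, in which no versions or alignment settings are given. Per the file headers, findPeaks was run in factor style (false discovery rate 0.001, peak size 133 bp), requiring at least 4-fold over input and over the local 10000 bp, and at most 10 tags considered per position. The deposited columns hold normalized tag signal (per 10000000 tags), ChIP and input tag signal, fold ratios over input, local region and expected clonality, the focus ratio as a fraction, a score and Poisson p-values. The deposited p-values were not used.

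The members, bands and comparisons were chosen with earlier results of these data known. Fold was recomputed from the tag columns and differed from the deposited fold by at most 0.221%. Shares carry exact Clopper-Pearson intervals, medians order-statistic intervals, and differences of either were given intervals by the square-and-add method. Fold intervals are exact binomial intervals conditional on the sum of whole tags. These intervals, at 95%, cover counting error or the spread over peaks, and tags without molecular identifiers are not independent molecules. Functions were tested on simulated data. Peaks were named by rank: the 10 with most input tags, the first 5 by each of ChIP tags, fold (both ends), focus ratio (both ends), local fold and clonal fold, and the 5 closest pairs. The comparison of clonal fold, the nearest peak's input, the 1 Mb windows and the 9 sites at 20-fold were added after values were seen. Software was Python 3.11.15 with matplotlib 3.10.9, scipy 1.17.1, pandas 2.3.3 and numpy 2.4.6.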

Additional observations from a re-analysis of the deposited data

How the results depend on the processing

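The number of input-rich peaks followed its definition: 1765 at 30 input tags or more, 128 at 50 or more, and 138 among peaks of 8-fold or more. The lowest and highest chromosome shares were 8.75% and 16.2% at 30 tags, 0.246% and 1.64% at 50 tags, and 8.47% and 15.8% among peaks with a score above 175. At 8-fold or more the lowest was 1.34%. The median of scaled ChIP tags was 196.3 at 30 tags, 286.6 at 50 tags, 233.3 in the top decile of input above the minimum, and 232.6 without peaks of a clonal fold above 1. For minimum-input peaks it was 193.9 with at least 141.1 scaled ChIP tags and 126.1 without such clonal peaks. The median fold was 5.30 at 30 tags, 4.98 at 50 tags and 5.52 without clonal peaks. For minimum-input peaks the fold was 9.06 with at least 141.1 scaled ChIP tags, 5.89 without clonal peaks and 5.50 with 1 tag added to each side.

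The focus ratio difference of 0.009 became -0.01 with the lower limit of ChIP tags shared, which does not make ChIP tags equal between the groups. The focus ratio difference was -0.009 above that score, but 0.0335 at 50 tags and 0.0255 at 8-fold. The local fold difference of 4.68 became -0.275 with that limit, 3.77 at 30 tags, 9.33 at 50 tags, 5.74 in the top decile and 9.80 at 8-fold. The clonal fold difference of 0.08 was 0.14 with that limit, 0.13 above that score, 0.06 without clonal peaks and 0.01 at 8-fold. The neighbour share difference of 3.88 percentage points became -0.084 at 50 tags (-7.55 to 8.49, over 128 peaks). It was 2.18 (-0.730 to 5.24) with neighbours closer than 1 kb not counted, and 2.03 (-1.32 to 5.48) with the ChIP tag limit. Above that score it was 1.85 (-1.47 to 5.29), and at 8-fold 4.02 (-3.92 to 12.7). Its interval stayed positive at 30 tags, in the top decile, without clonal peaks and with neighbours within 5 or 25 kb. Apart from the ChIP tag limit, which removes the weak minimum-input peaks, the cause of these shifts was not tested. Leaving out the chromosome 2 peak of 285 input tags, an alternative chosen after seeing the data, left each of these medians and differences within its interval. No paired analysis was possible because there is a single ChIP and a single input library. Input counts of 35 to 37 tags at 37.6% of the sites limit how firmly a site is placed on either side of the threshold.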
